A study of Mus musculus with 9 samples.

Results

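The genes described here encode the proteins of the mitochondrial ribosome, named Mrpl in the large subunit and Mrps in the small subunit. Members were taken by name, as every gene whose symbol begins with Mrpl or Mrps and a number and whose scaled value reached 10 in at least 3 libraries. This gave 77 of the 24364 genes in the deposited tables, 48 Mrpl genes and 29 Mrps genes. All 77 passed the filter on low values, and the least abundant averaged 86.0 scaled reads over the 9 libraries, so no member entered through a single group.

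Polyadenylated RNA had been sequenced from GFP+ acute promyelocytic leukemia (APL) cells of the mouse. APL is a myeloid leukemia caused by the PML/RARα fusion protein, and these cells came from the bone marrow of hMRP8-PML/RARα transgenic FVB N/J mice, in which a human promoter of the myeloid lineage drives the fusion. They carried the retroviral GFP vector MigR1, were expanded in syngeneic recipients and were sorted from the marrow by their GFP. The groups were ATO (arsenic trioxide, 4 mg/kg), ATRA (all-trans retinoic acid, 10 mg/kg) and control, with 3 libraries each. Both drugs were injected intraperitoneally every day for 6 days after overt leukemia had set in. No source used here says that control mice received solvent, so injection and drug cannot be told apart. The series calls the libraries of a group biological replicates but does not tie each of them to a mouse, so p-values measure the spread between these libraries only.

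Mitochondrial ribosomes translate the few messenger RNAs made from mitochondrial DNA, all of which encode membrane subunits of the respiratory chain and the ATP synthase. Their RNA is transcribed inside the organelle, whereas all of their proteins are encoded in the nucleus, made by cytosolic ribosomes and imported. Compared with the bacterial ribosome they hold less RNA and more protein, so that many Mrp genes have a bacterial counterpart and others are specific to mitochondria.

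Total reads on genes ran from 12192491 (ATO 3) to 25511738 (ATO 2), and values are given as scaled reads, which are reads divided by a size factor of the library. All 10 markers of promyelocytes and neutrophils, the labelled cells, had reads in every group, with sums of 677400 to 962600 scaled reads with ATO, 676600 to 721900 with ATRA and 486200 to 677000 in controls. Libraries differed in how values followed transcript length. Per doubling of transcript length, a gene's log2 deviation from its mean over the 9 libraries changed by -0.35 in ATO 3, -0.151 in ATRA 3 and 0.247 in control 2, against -0.0195 to 0.132 in the other 6 libraries. Mrp transcripts are short, with a median of 1142 bases against 2773 bases over all genes tested, so results are also given without these libraries and after length and GC trends had been removed from each library.

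Per kilobase of transcript, Mrp genes had a higher median level than all genes tested, though some members lay below the median of all genes. The mean over the 9 libraries had a median of 551 scaled reads per kilobase for Mrp genes (570 for Mrpl genes and 496 for Mrps genes). That median was 161 over all genes tested and 18230 for the cytosolic ribosomal protein genes. In the large subunit the highest levels were those of Mrpl33 (3136 scaled reads per kilobase), Mrpl43 (1879) and Mrpl34 (1687), and the lowest those of Mrpl47 (35.1) and Mrpl1 (41.0). Mrpl33 and Mrpl34 encode small proteins of bacterial type, Mrpl43 a protein specific to mitochondria, and Mrpl1 the protein of the mobile L1 stalk. In the small subunit Mrps21 (2026), Mrps16 (1345) and Mrps34 (1044) were highest, and Mrps25 (96.1) and Mrps6 (126) lowest. These levels use the length of a single annotated transcript per gene, 6073 bases for Mrps25 and 478 bases for Mrpl33. Exons of other genes overlap some of these members. For Mrps34 they take 63.4% of its exon bases on the opposite strand (Mapk8ip3) and 37.0% on the same strand (Nme3), and for Mrps6 43.8% on the same strand (Slc5a3). Levels of the 77 genes thus spanned from 35.1 to 3136 scaled reads per kilobase.

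With ATO, 15 of the 77 Mrp genes rose and none fell, where 6.13% of all genes tested rose and 8.55% fell. A gene was called at a fold change over 1.5 and an adjusted p under 0.05 (limma, Benjamini-Hochberg over all 12101 genes tested). The genes that rose were Mrpl12, Mrpl15, Mrpl17, Mrpl20, Mrpl24, Mrpl34, Mrpl37, Mrpl38, Mrpl45, Mrpl49 and Mrpl53 of the large subunit and Mrps7, Mrps12, Mrps18b and Mrps25 of the small subunit. Their fold changes ran from 1.55 to 2.04. The median log2 change over the 77 genes was 0.44 (middle 50% from 0.34 to 0.65), against -0.006 over all genes tested, and 74 of 77 had a log2 change above 0, against 49.6% of all genes. For 33 members all 3 ATO libraries lay above all 3 controls, which was so for 15.9% of all genes tested, and for no member did they all lie below (16.4% of all genes). At an unadjusted p under 0.05 with a fold change over 1.5, 24 members were higher, against 9.63% of all genes.

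**Figure D1:**
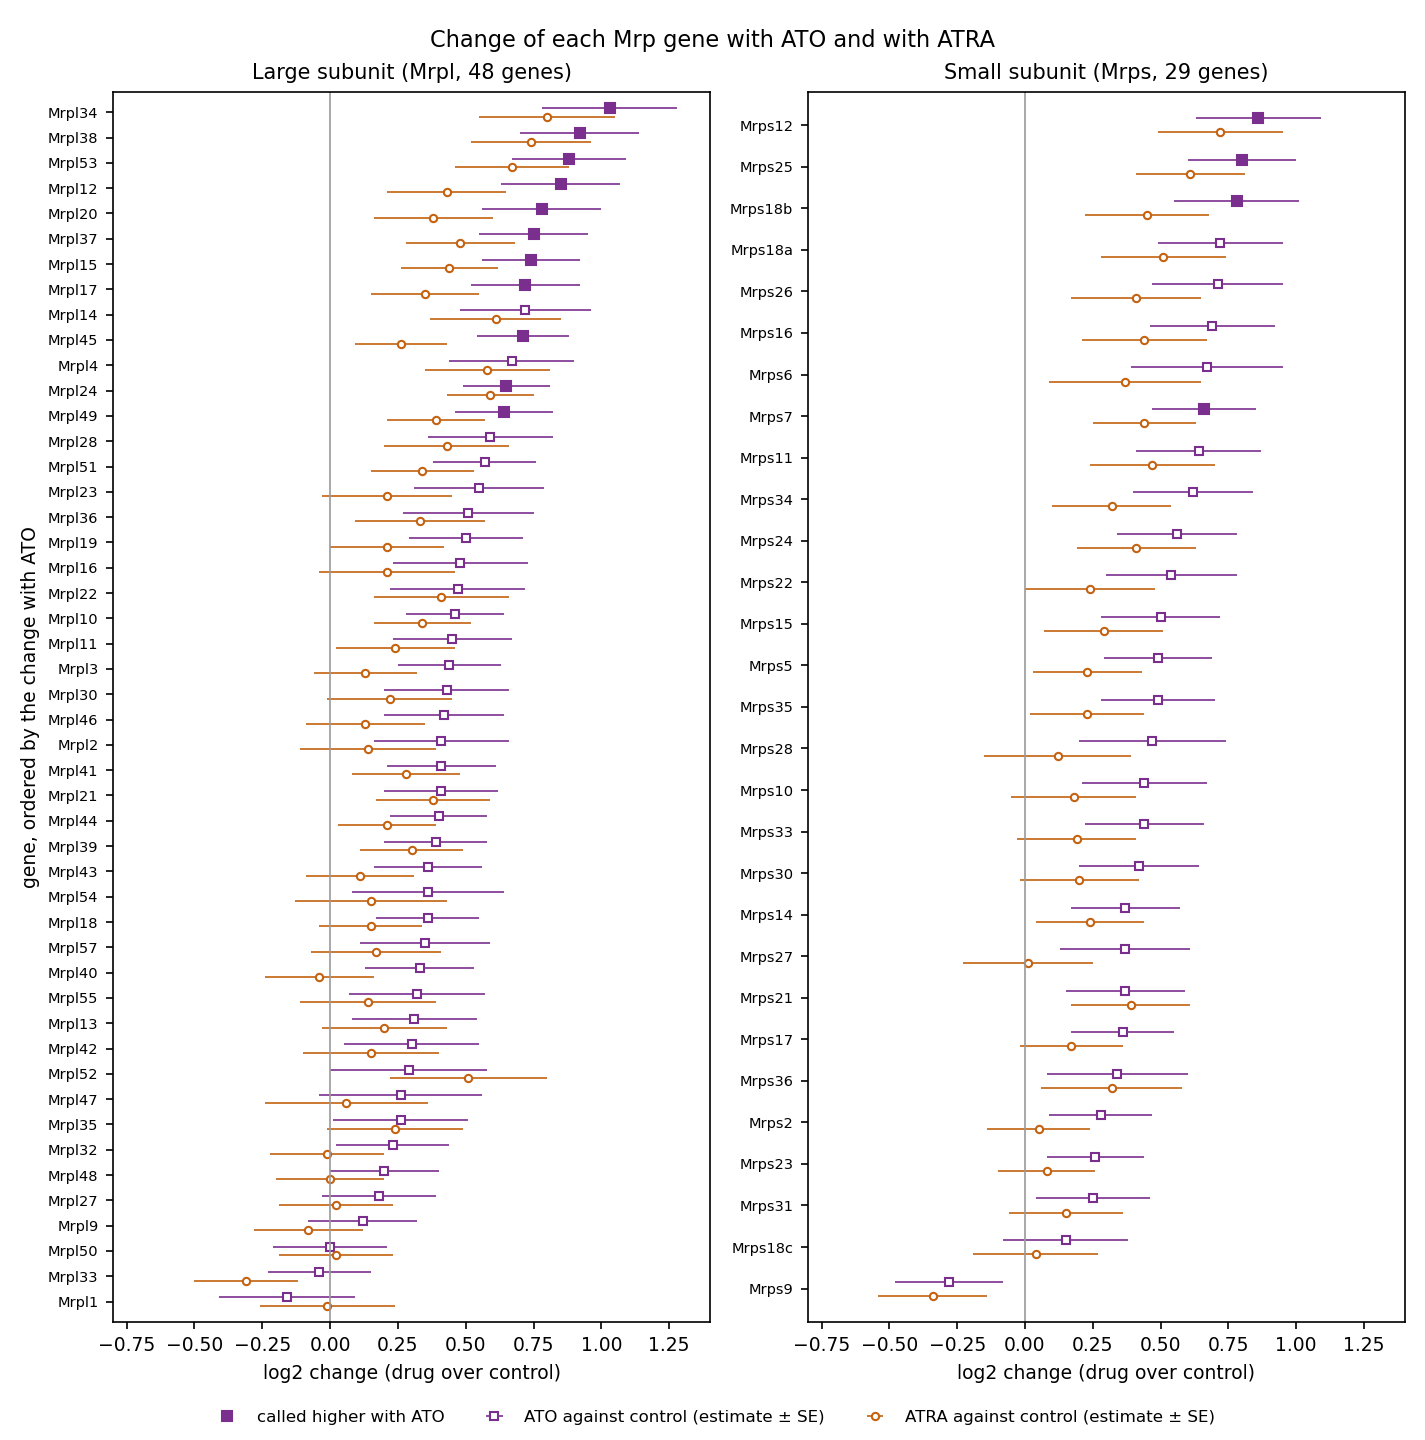
Log2 change of each of the 48 Mrpl genes (left) and 29 Mrps genes (right) with ATO (squares) and with ATRA (circles), each over control, with the standard error from limma. Filled squares are the 15 genes called higher with ATO. The ATO estimates run from -0.28 (Mrps9) to 1.03 (Mrpl34), and 74 of 77 lie above 0.

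Among large subunit proteins of bacterial type, Mrpl34 changed most. This gene (mm9, chromosome 8, 73988825 to 73989651, plus strand) had 976, 1308 and 1972 scaled reads with ATO, 1087, 1052 and 1358 with ATRA, and 868, 538 and 633 in controls. Every treated library lay above every control, and ATO 3 was the highest of all. Its log2 change with ATO was 1.03 (SE 0.25, adjusted p = 0.0223). Mrpl15 (chromosome 1, 4763287 to 4775820, minus strand) had 890, 988 and 1178 scaled reads with ATO, 734, 754 and 999 with ATRA, and 633, 611 and 579 in controls. Its controls lay close together, and its log2 change with ATO was 0.74 (SE 0.18, adjusted p = 0.0213). Mrpl20, whose bacterial counterpart takes part in building the large subunit, averaged 1163 ± 308 scaled reads with ATO, 862 ± 55.7 with ATRA and 675 ± 158 in controls (SD, n = 3 each). Mrpl17, chosen for description after its values were seen, was the only gene of the 15 whose ATO and control libraries overlapped, with 1569 scaled reads in ATO 1 and 1578 in control 1.

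Mrpl12 forms the flexible stalk that contacts translation factors. It had 1734, 2315 and 2840 scaled reads with ATO, 1625, 1579 and 1838 with ATRA, and 1694, 1065 and 1072 in controls. The ATO libraries lay above all controls, ATO 1 by little, and the log2 change with ATO was 0.85 (SE 0.22, adjusted p = 0.0272). The stalk is anchored by Mrpl10, with 1428 ± 293 scaled reads with ATO, 1305 ± 136 with ATRA and 1029 ± 107 in controls, and lies beside Mrpl11, with 895 ± 216, 764 ± 87.4 and 656 ± 157 scaled reads in the same order (SD, n = 3 each). Neither passed the test with ATO (log2 0.46, adjusted p = 0.0965, and log2 0.45, adjusted p = 0.166).

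Around the exit tunnel, through which the growing chain leaves, Mrpl45 and Mrpl24 rose with ATO. Mrpl45 is a protein specific to mitochondria that ties the large subunit to the inner membrane. It had 1168, 1363 and 1661 scaled reads with ATO, 919, 1007 and 1104 with ATRA, and 870, 870 and 792 in controls, so that the ATO libraries lay above all other libraries. Its log2 change with ATO was 0.71 (SE 0.17, adjusted p = 0.02). Mrpl24 had 891, 920 and 1067 scaled reads with ATO, 873, 864 and 1018 with ATRA, and 666, 611 and 556 in controls, and both drug groups lay above the controls. Its log2 change with ATO was 0.65 (SE 0.16, adjusted p = 0.0241). Exons of Rrnad1 on the opposite strand overlap 26.3% of the exon bases of Mrpl24. Mrpl23, also at the tunnel, had 1137 ± 203 scaled reads with ATO and 805 ± 280 in controls (SD, n = 3 each) and did not pass (adjusted p = 0.13). Mrpl44, which carries an RNase III fold, had 669 ± 98.6 scaled reads with ATO and 502 ± 9.10 in controls (SD, n = 3 each) and did not pass either (adjusted p = 0.126).

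Several of the other genes that rose encode large subunit proteins specific to mitochondria. Mrpl38 (chromosome 11, 115993131 to 116000182, minus strand) had 735, 959 and 1001 scaled reads with ATO, 744, 723 and 901 with ATRA, and 603, 356 and 489 in controls. All 6 treated libraries lay above the controls, and the log2 change with ATO was 0.92 (SE 0.22, adjusted p = 0.0186). Mrpl53 had 257, 310 and 407 scaled reads with ATO, 283, 258 and 291 with ATRA, and 200, 151 and 173 in controls (log2 0.88 with ATO, SE 0.21, adjusted p = 0.0215). In the annotation 87.1% of its exon bases lie in exons of Ccdc142 on the same strand, and how such reads were assigned is not given in the sources used here. Mrpl37 averaged 1377 ± 185 scaled reads with ATO, 1139 ± 77.1 with ATRA and 835 ± 226 in controls, and Mrpl49 averaged 811 ± 93.3, 687 ± 108 and 521 ± 42.9 scaled reads in the same order (SD, n = 3 each).

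In the small subunit Mrps12 and Mrps7, both on the side that reads the messenger RNA, rose with ATO. Mrps12 (chromosome 7, 29524660 to 29526839, minus strand), the protein of the decoding site, had 638, 820 and 1173 scaled reads with ATO, 731, 760 and 822 with ATRA, and 594, 424 and 404 in controls. The groups did not overlap for either drug, and ATO 3 was again the highest (log2 0.86 with ATO, SE 0.23, adjusted p = 0.029). Mrps7 averaged 1180 ± 250 scaled reads with ATO, 1002 ± 127 with ATRA and 738 ± 87.4 in controls (SD, n = 3 each). Mrps25, a protein specific to mitochondria, had 583, 657 and 922 scaled reads with ATO, 557, 592 and 719 with ATRA, and 455, 384 and 384 in controls (log2 0.80 with ATO, SE 0.20, adjusted p = 0.0247). Exons of Nr2c2 on the opposite strand overlap 53.7% of its exon bases, and whether the counting used strand is not stated.

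Mammals have 3 proteins related to a single bacterial small subunit protein, S18, and their genes did not all pass the test. Mrps18b averaged 889 ± 153 scaled reads with ATO, 706 ± 104 with ATRA and 527 ± 158 in controls, and rose with ATO (log2 0.78, SE 0.23, adjusted p = 0.0391). Mrps18a, whose product sits in the large subunit despite its name, averaged 896 ± 210, 761 ± 48.3 and 549 ± 158 scaled reads in the same order (log2 0.72, adjusted p = 0.0534). Mrps18c, the closest in place to the bacterial protein, averaged 459 ± 141, 417 ± 67.8 and 405 ± 48.6 scaled reads (log2 0.15, adjusted p = 0.668). All 3 means are over 3 libraries with SD, and the difference between the paralogs was not tested. Exons of Gm16279 on the opposite strand overlap 30.5% of the exon bases of Mrps18b.

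At the other end, 3 members had log2 changes below 0 with ATO, none past the test. Mrps9 had 570, 487 and 607 scaled reads with ATO, 455, 521 and 627 with ATRA, and 697, 531 and 814 in controls (log2 -0.28 with ATO, SE 0.20, adjusted p = 0.337). Mrpl33, the most abundant member per kilobase, averaged 1576 ± 302 scaled reads with ATO, 1314 ± 264 with ATRA and 1607 ± 137 in controls, and Mrpl1 averaged 133 ± 3.73, 154 ± 48.5 and 150 ± 18.2 scaled reads (SD, n = 3 each). In all 3 genes the groups overlapped.

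**Figure D2:**
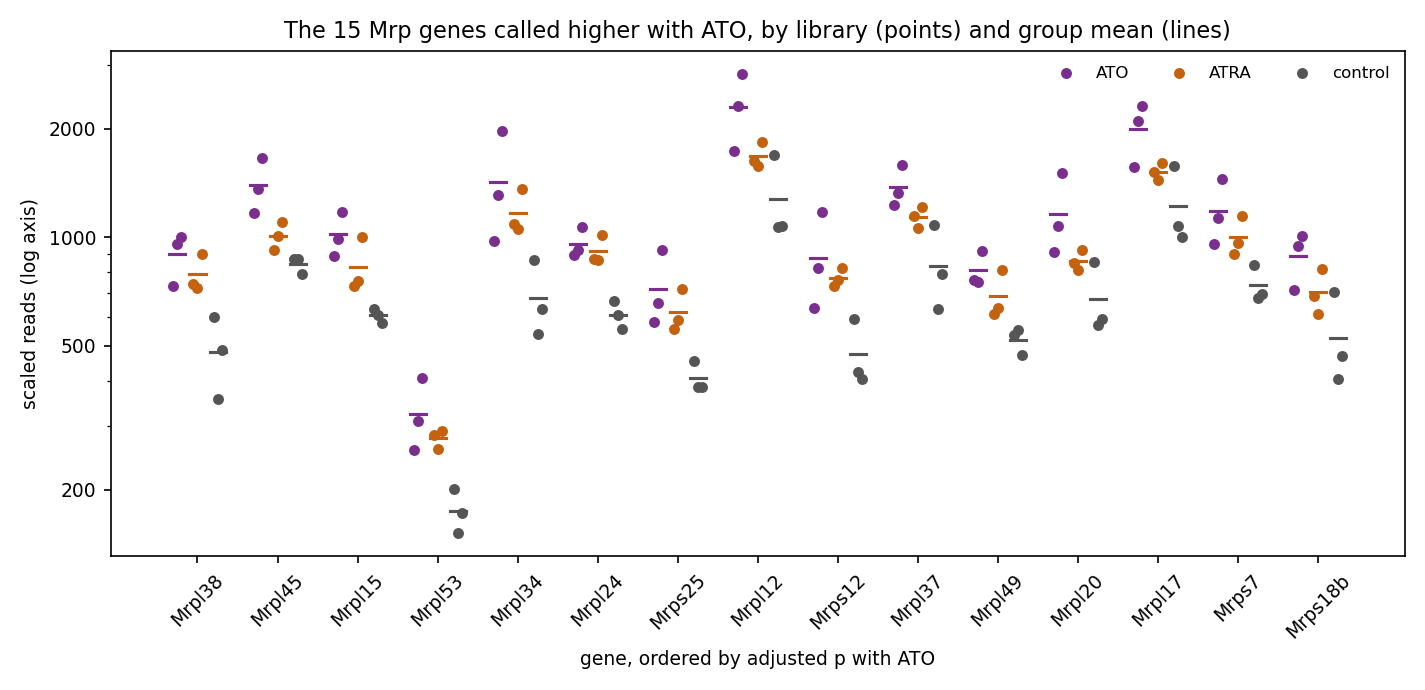
Scaled reads (log axis) of the 15 Mrp genes called higher with ATO in each of the 3 ATO, 3 ATRA and 3 control libraries (points), with group means (lines), ordered by adjusted p. In 14 of the 15 all ATO libraries lie above all controls, with Mrpl17 the exception, and ATO 3 is the highest of the 9 libraries in all 15.

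The number of calls with ATO varied with the libraries left out, for Mrp genes and for all genes. No Mrp gene passed without ATO 2, ATO 3 or control 3, when 1.2%, 1.68% and 0.735% of all genes were called higher. By contrast 6 passed without control 2 (4.34% of all genes), 28 without control 1 (12.7%) and 7 once length and GC trends had been removed (3.79%). The median log2 change of the 77 genes was 0.44 with all 9 libraries. It was 0.51 without ATO 2, 0.47 without control 3, 0.35 without control 2 and 0.28 without ATO 3. It was 0.20 without both ATO 3 and control 2 (62 of 77 above 0), and 0.23 after the trends were removed (67 of 77 above 0). Of the 15 genes, 14 kept an adjusted p under 0.05 after the trends were removed, with log2 changes of 0.33 (Mrps7) to 1.30 (Mrps25) over the 15. Mrpl15, Mrpl17, Mrpl45 and Mrps25 were also still over 1.5-fold, and their annotated transcripts are long (4203, 3848, 2431 and 6073 bases). Removal raised the log2 change of Mrpl15 (0.74 to 1.03), Mrpl17 (0.72 to 0.98) and Mrps25 (0.80 to 1.30) and lowered that of Mrpl45 (0.71 to 0.64). The other members called with trends removed were Mrpl19, Mrpl51 and Mrps5 (5000, 2741 and 4481 bases). On the recovered reads edgeR's quasi-likelihood test called the same 15 genes (4.97% of all genes higher), and DESeq2 called 20 (7.46% of all genes higher), with Mrpl14, Mrps11, Mrps16, Mrps18a and Mrps26 added.

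Promoter sequences of the genes that rose are shown because nuclear genes of mitochondrial proteins are known to be controlled through short shared elements, among them sites for NRF1, ETS-family factors such as GABPA, and YY1. Windows of 250 bases before to 50 bases after the transcription start (RefSeq, GRCm38.p6) were matched for 68 of the 77 genes. On either strand, CCGGAAG, a core of ETS-family sites, stood in 35.3% of the Mrp windows (24 of 68), in 18.7% of windows of the genes tested here and in 9.12% of the windows of all 27025 genes. The YY1 motif stood in 7.35%, 1.74% and 0.699% of the same sets, and the palindromic NRF1 motif in 4.41%, 2.20% and 0.977%. CACGTG (E-box) stood in 7.35%, 10.3% and 7.24%, and CCAAT in 39.7%, 38.9% and 37.9%. None of the 5 motifs contains another. Of the 13 matched windows of genes that rose with ATO, 5 held CCGGAAG (38.5%), a share near that of all Mrp windows. The windows of Mrpl12, Mrpl24, Mrpl45, Mrpl49 and Mrps7 held none of the 5 motifs. In 4 of the 13 windows, all read 5′ to 3′ on the gene's strand, the motifs are set in capitals:

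Mrpl34 (chr8:71464676-71464975, plus strand): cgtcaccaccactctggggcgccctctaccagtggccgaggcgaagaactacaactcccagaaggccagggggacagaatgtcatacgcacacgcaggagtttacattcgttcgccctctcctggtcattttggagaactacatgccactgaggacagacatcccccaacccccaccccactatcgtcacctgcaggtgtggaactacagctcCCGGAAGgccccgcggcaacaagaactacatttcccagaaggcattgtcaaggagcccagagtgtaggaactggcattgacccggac
Mrpl53 (chr6:83108858-83109157, plus strand): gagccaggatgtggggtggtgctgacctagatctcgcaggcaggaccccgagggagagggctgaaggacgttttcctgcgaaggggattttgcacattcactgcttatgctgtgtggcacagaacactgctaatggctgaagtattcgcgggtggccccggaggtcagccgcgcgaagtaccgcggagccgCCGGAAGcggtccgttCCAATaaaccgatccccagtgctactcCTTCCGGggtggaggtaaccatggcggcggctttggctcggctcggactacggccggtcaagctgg
Mrps12 (chr7:28741772-28742071, minus strand): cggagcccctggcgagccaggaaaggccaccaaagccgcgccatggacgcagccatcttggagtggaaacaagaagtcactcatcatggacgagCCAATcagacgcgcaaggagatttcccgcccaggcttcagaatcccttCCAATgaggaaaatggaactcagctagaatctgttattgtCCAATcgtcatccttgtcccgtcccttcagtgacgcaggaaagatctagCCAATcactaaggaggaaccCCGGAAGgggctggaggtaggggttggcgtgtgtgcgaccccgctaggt
Mrpl37 (chr4:107066817-107067116, minus strand): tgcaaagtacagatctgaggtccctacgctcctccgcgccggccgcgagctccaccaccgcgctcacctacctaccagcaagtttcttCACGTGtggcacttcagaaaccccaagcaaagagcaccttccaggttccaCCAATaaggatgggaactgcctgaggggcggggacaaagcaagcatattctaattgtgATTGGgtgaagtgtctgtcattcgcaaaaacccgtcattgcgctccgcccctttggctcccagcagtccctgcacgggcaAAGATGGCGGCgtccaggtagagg

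The windows of Mrpl34, Mrpl53 and Mrps12 hold CCGGAAG, which Mrpl53 has on both strands. Mrps12 also holds 4 copies of CCAAT. Mrpl37 has no CCGGAAG but holds the YY1 motif near the end of its window, CACGTG, and CCAAT on both strands. Mrpl46 and Mrps11, which stand head to head on chromosome 7, have windows that overlap, and neither was called by limma (log2 0.42, adjusted p = 0.195, and log2 0.64, adjusted p = 0.076, with ATO). A match describes the letters of a window and does not show that a factor binds there.

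With ATRA no Mrp gene passed the test with limma, where 1.34% of all genes tested rose and 4.26% fell. By edgeR the count was also 0 (1.26% of all genes higher), by DESeq2 it was 3 (Mrpl24, Mrpl34 and Mrpl38, with 2.18% of all genes higher), and 13 members had an unadjusted p under 0.05 with limma (19.2% of all genes in either direction). Of these, Mrpl14, Mrpl24, Mrpl34, Mrpl38, Mrpl53, Mrps12 and Mrps25 were over 1.5-fold higher with ATRA (4.56% of all genes), and no member was over 1.5-fold lower. The median log2 change over the 77 genes was 0.24 (middle 50% from 0.14 to 0.41), against -0.0058 over all genes tested, and 71 of 77 had a log2 change above 0, against 49.5% of all genes. For 19 members all 3 ATRA libraries lay above all 3 controls, which was so for 11.5% of all genes tested, and for no member did they all lie below (12.5% of all genes).

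The lowest adjusted p with ATRA was that of Mrpl24, with a log2 change of 0.59 (SE 0.16, adjusted p = 0.0562). Mrpl34 (log2 0.80, SE 0.25, adjusted p = 0.0995), Mrpl38 (log2 0.74, SE 0.22, adjusted p = 0.07) and Mrps12 (log2 0.72, SE 0.23, adjusted p = 0.099) had the largest changes upward. Mrps9 (log2 -0.34, SE 0.20, adjusted p = 0.391), Mrpl33 (log2 -0.31, SE 0.19, adjusted p = 0.411) and Mrpl9 (log2 -0.08, SE 0.20, adjusted p = 0.858) had the largest changes downward. Mrpl9 averaged 786 ± 91.6 scaled reads with ATRA and 846 ± 208 in controls (SD, n = 3 each). The median of the 77 genes was 0.11 without ATRA 3, 0.19 without control 2 and 0.03 without both, when 42 of 77 genes were above 0. Without ATO 3, which is in neither group of this comparison but takes part in the fit, Mrpl24, Mrpl34 and Mrps12 were called higher with ATRA (1.47% of all genes).

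Set directly against each other, ATO and ATRA gave no Mrp call with limma, where 0% of all genes tested were called, and none with edgeR (0%) or DESeq2 (0.413% of all genes called higher). A single member had an unadjusted p under 0.05 (6.31% of all genes), Mrpl45, with a log2 difference of 0.46 (ATO over ATRA, SE 0.17, unadjusted p = 0.0199, adjusted p = 0.643). The next largest differences upward were those of Mrpl12 (log2 0.42) and Mrpl20 (log2 0.40), and downward those of Mrpl52 (log2 -0.22), Mrpl1 (log2 -0.15) and Mrps21 (log2 -0.03). The median over the 77 genes was 0.21, with 73 of 77 above 0, against 0.015 and 52.2% over all genes tested. Without ATO 3 the median was 0.04 and 47 of 77 were above 0. The changes with ATO and with ATRA share their control libraries and are therefore given only side by side.

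**Figure D3:**
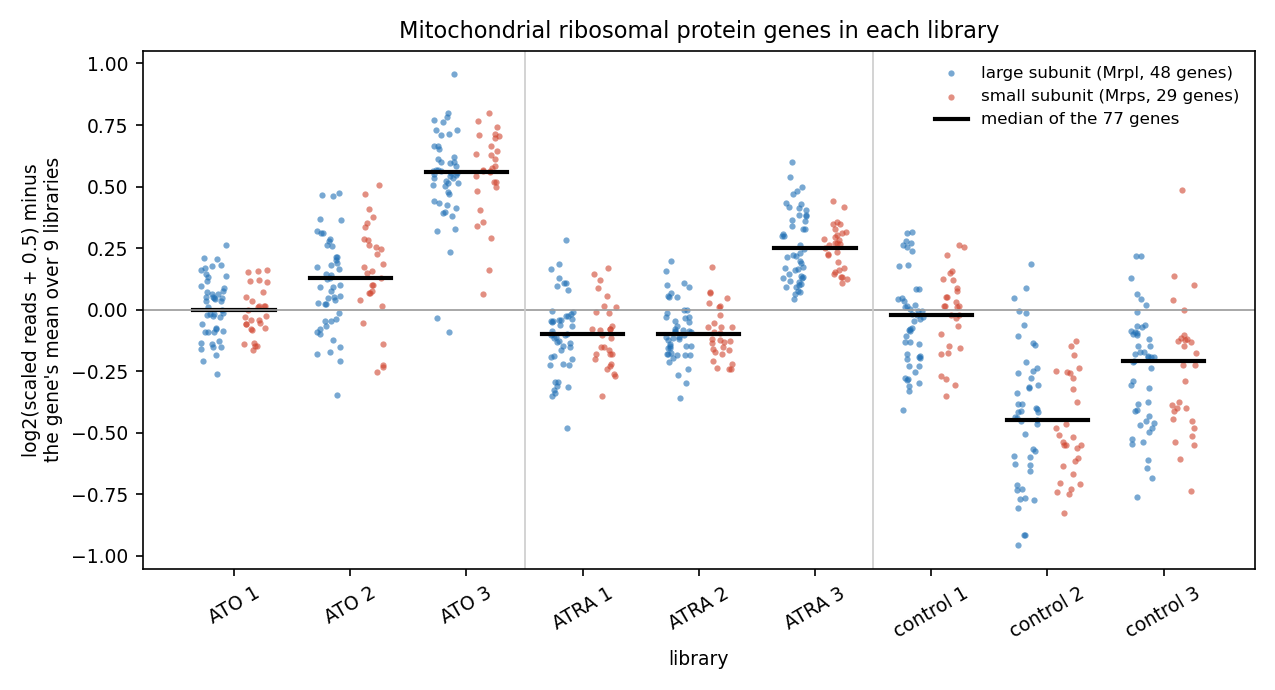
Deviation of each Mrp gene from its own mean over the 9 libraries, on the log2 scale, in each ATO, ATRA and control library, for large (blue) and small (red) subunit genes, with the median of the 77 genes as a black line. The medians run from 0.56 in ATO 3 to -0.45 in control 2, and genes of both subunits lie above and below the median in each library.

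Library by library, the median deviation of the 77 genes from their own means was 0.00, 0.13 and 0.56 with ATO, -0.10, -0.10 and 0.25 with ATRA, and -0.02, -0.45 and -0.21 in controls. ATO 1 and control 1 were thus nearly level, and ATO 3 and control 2 stood at the ends. Of the 77 genes 67 were highest in ATO 3 and 7 in ATRA 3, and 51 were lowest in control 2 and 13 in control 3. Mrp genes took 0.352 ± 0.0469% of all reads on genes with ATO, 0.331 ± 0.0434% with ATRA and 0.287 ± 0.0367% in controls (SD, n = 3 each). The order of the medians ran opposite to that of the length slopes at both ends, with ATO 3 and ATRA 3 highest in the median and lowest in the slope, and control 2 lowest in the median and highest in the slope. The part of the length trend in these changes was not tested beyond its removal above. Over the 11579 genes with a length, the log2 change per doubling of transcript length had a slope of -0.246 with ATO and -0.151 with ATRA. Among the 77 genes themselves, with a single annotated length each, the log2 change with ATO did not follow transcript length (Pearson's r = 0.0038 and Spearman's rho = -0.025 across 77 genes, which share the same 6 libraries). Such a correlation within the members does not measure the part of the length trend in their shared shift.

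**Figure D4:**
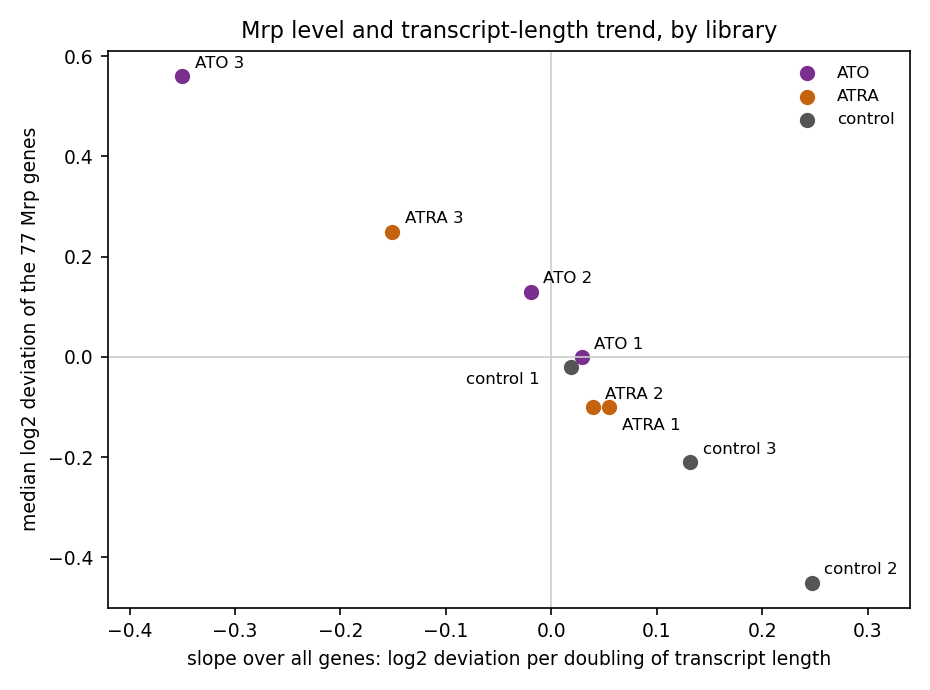
Median log2 deviation of the 77 Mrp genes (vertical) against the slope of log2 deviation per doubling of transcript length over all genes with a length (horizontal), for the 3 ATO, 3 ATRA and 3 control libraries. ATO 3 lies at the upper left (slope -0.35, median 0.56) and control 2 at the lower right (slope 0.247, median -0.45).

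With ATO 11 of 48 Mrpl genes and 4 of 29 Mrps genes rose, where 6.13% of all genes tested rose, and the median log2 changes were 0.42 and 0.49. With ATRA the medians were 0.23 and 0.24, and for ATO over ATRA 0.20 and 0.22. DESeq2, with 12 Mrpl and 8 Mrps genes called with ATO (7.46% of all genes higher), gave a more even split. With Mrps30 and Mrps18a counted with the large subunit, where their products sit, and Mrps36, whose product belongs to the oxoglutarate dehydrogenase complex, left out, the calls with ATO were 11 of 50 and 4 of 26. Mrpl genes took 2.16, 2.09 and 2.10 times the reads of Mrps genes with ATO, 2.09, 2.07 and 2.07 times with ATRA, and 2.10, 2.16 and 2.09 times in controls. These ratios averaged 2.11 ± 0.0365 with ATO, 2.08 ± 0.0105 with ATRA and 2.12 ± 0.0392 in controls (SD, n = 3 each). Two-sided exact permutation tests gave p = 0.7 for ATO against control, p = 0.1 for ATRA against control and p = 0.2 for ATO against ATRA, where 3 libraries against 3 cannot give less than 0.1.

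The SD of the log2 changes of the 77 members was 0.241 with ATO and 0.217 with ATRA, and over all genes tested it was 0.832 with ATO and 0.767 with ATRA. The median SE of a single log2 change was 0.222 for the members and 0.232 over all genes tested, with either drug. For ATO over ATRA the SD between members was 0.119, at the same median SE of 0.222. The SE also holds shifts of a whole library that members share, so it does not measure the spread between members. Differences between members were not tested.

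Of 6 subunit genes that carry other names, none was called with either drug by limma, and DESeq2 called Aurkaip1, Chchd1 and Gadd45gip1 with ATO. Aurkaip1, the most abundant of them, averaged 1950 ± 378 scaled reads with ATO, 1637 ± 76.3 with ATRA and 1262 ± 318 in controls (log2 0.64 with ATO, adjusted p = 0.051). The median log2 change of the 6 was 0.53 with ATO and 0.32 with ATRA, and 0.34 and 0.20 with length and GC trends removed, when Dap3 was called with ATO. Leaving out single libraries gave 0 to 2 calls with ATO (2 without ATO 1 or control 1, 1 without ATRA 3). Dap3, a GTP-binding subunit, averaged 1386 ± 100.1 scaled reads with ATO and 1034 ± 125 in controls (log2 0.43, adjusted p = 0.0837; SD, n = 3 each).

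Of 25 genes of mitochondrial ribosome assembly 3 rose with ATO (6.13% of all genes tested rose), none fell and none was called with ATRA (median log2 0.29 with ATO and 0.19 with ATRA). Noa1, a GTPase needed for the small subunit, had 1171, 1299 and 1249 scaled reads with ATO, 1038, 1065 and 1233 with ATRA, and 888, 750 and 742 in controls, with every treated library above the controls (log2 0.65 with ATO, SE 0.16, adjusted p = 0.0213). The other assembly genes that rose were Mtg2, a GTPase of the large subunit (log2 0.62, adjusted p = 0.0472), and Rnmtl1, a methyltransferase of the large ribosomal RNA (log2 0.74, adjusted p = 0.0477). None of the 3 was called without ATO 2, ATO 3 or control 3 or with length and GC trends removed (median then 0.25), and edgeR called Noa1 alone. Without ATRA 1, ATRA 2 or control 2 Noa1 was the single assembly gene called, and without control 1 there were 7 called higher and 1 lower with ATO and Mtg2 higher with ATRA. Of 15 translation factors limma called Tufm alone, with ATO (6.13% of all genes tested rose) and with ATRA (1.34%). Tufm, the elongation factor that brings aminoacyl-tRNA to the ribosome, had 1922, 2273 and 2432 scaled reads with ATO, 1873, 1901 and 1968 with ATRA, and 1326, 1108 and 924 in controls. The treated libraries lay well above the controls, with log2 changes of 0.99 with ATO (SE 0.17, adjusted p = 0.00403) and 0.79 with ATRA (adjusted p = 0.0166). With ATO it was called whichever single library was left out. With ATRA it was not called without ATRA 1, ATRA 2 or control 3, nor with trends removed (log2 0.55, adjusted p = 0.0118; 1.6% of all genes were called higher), where its fold change was under 1.5. Mrrf, the gene of the ribosome recycling factor, was called beside it with ATO when trends were removed and by DESeq2, Tsfm without ATO 1 or control 1, and Gfm2 without control 2, and Guf1 was lower without control 1.

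Of 20 genes of mitochondrial aminoacyl-tRNA synthesis, Vars2, Gatb and Aars2 rose with ATO (6.13% of all genes tested rose) and none was called with ATRA (1.34%). The median log2 change of the list was 0.26 with ATO and 0.13 with ATRA, and 0.19 and 0.07 with trends removed. With trends removed Vars2 and Gatb were called, by edgeR Vars2 alone, and none of the list without ATO 2, ATO 3, ATRA 2, control 2 or control 3. With ATRA, Tars2 and Vars2 were called higher without control 1, and Nars2 lower without control 2. Vars2, the valyl-tRNA synthetase gene, averaged 943 ± 102 scaled reads with ATO, 831 ± 110.4 with ATRA and 559 ± 178 in controls (SD, n = 3 each). None of 14 genes of mitochondrial transcription and RNA processing was called by limma, and 5 had an unadjusted p under 0.05 with ATO (34.8% of all genes in either direction). edgeR and DESeq2 called Tfb2m lower with ATO. The median log2 change of the list with ATO was -0.16, and the direction turned to 0.06 with trends removed. Without control 1 Hsd17b10 and Polrmt were called higher and Tfb2m and Trmt10c lower with ATO, and Polrmt higher with ATRA. Without ATO 1 Hsd17b10 was called higher with ATO. Hsd17b10, the most abundant of these and a subunit of mitochondrial RNase P, averaged 1656 ± 369 scaled reads with ATO and 1187 ± 204 in controls (log2 0.47, adjusted p = 0.114; SD, n = 3 each).

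Of 9 regulators known to act on such genes limma called Esrra alone, with ATO (6.13% of all genes tested rose). Esrra, the gene of the nuclear receptor ERRα, had 1274, 1694 and 1534 scaled reads with ATO, 1356, 1277 and 1131 with ATRA, and 1163, 883 and 733 in controls (log2 0.71 with ATO, SE 0.19, adjusted p = 0.032). The call was lost with trends removed (log2 0.29, adjusted p = 0.11) and without ATO 2, ATO 3, ATRA 2, control 2 or control 3. Gabpa, the gene of an ETS-family factor, averaged 357 ± 103 scaled reads with ATO, 450 ± 10.5 with ATRA and 585 ± 143 in controls (log2 -0.72 with ATO, adjusted p = 0.0597), and was called lower by DESeq2 and without ATO 1 or control 1. Nrf1 averaged 1020 ± 58.1 scaled reads with ATO and 864 ± 56.1 in controls (log2 0.24, adjusted p = 0.269), and Yy1 1504 ± 128 and 1546 ± 322 (log2 -0.02, adjusted p = 0.936; SD, n = 3 each).

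Of 13 genes of mitochondrial chaperones, proteases and their regulators, 6 rose with ATO and 1 with ATRA, where 6.13% and 1.34% of all genes tested rose. Atf5, a transcription factor of the mitochondrial stress response, had 3058, 4604 and 4833 scaled reads with ATO, 2900, 2515 and 2676 with ATRA, and 1430, 1322 and 826 in controls. All groups were apart, with log2 changes of 1.81 with ATO (SE 0.23, adjusted p = 0.000825) and 1.21 with ATRA (adjusted p = 0.00712). Hspe1 and Hspd1, the genes of the paired chaperonins HSP10 and HSP60, rose by a log2 of 1.21 (adjusted p = 0.00515) and 0.81 (adjusted p = 0.0276) with ATO, beside Ddit3, Htra2 and the protease gene Clpp. Atf5, Ddit3 and Hspe1 were called with ATO whichever single library was left out, and these and Hspd1 with trends removed. Without ATO 2 or control 3 only these first 3 were called, and without control 3 the call of Atf5 with ATRA was lost. edgeR and DESeq2 also called Yme1l1 lower with ATO.

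The cytosolic ribosomal protein genes gave a like median. Of 79 tested, 2 rose with ATO (Rps19 and Rps19bp1, which encodes a binding partner of Rps19 rather than a ribosomal protein), where 6.13% of all genes tested rose. None was called with ATRA (1.34% of all genes higher), and all 79 had a log2 change above 0 with ATO. Their median log2 change was 0.47 with ATO and 0.19 with ATRA, and 0.20 and 0.08 with length and GC trends removed, where the Mrp genes had 0.23 and 0.18. The 2 calls became 0 with trends removed (3.79% of all genes higher), 11 with DESeq2 (7.46%), and 0 without ATO 3 (1.68%) or control 3 (0.735%). The count was 1 (Rps19bp1) without ATO 2 (1.2%), ATRA 1 (4.01%), ATRA 2 (3.52%) or control 2 (4.34%). It was 13 without ATO 1 (7.52%) and 43 without control 1 (12.7%). Their median deviations by library were 0.01, 0.15 and 0.62 with ATO, -0.06, -0.07 and 0.05 with ATRA, and 0.10, -0.46 and -0.31 in controls, with ATO 3 and control 2 at the ends as for the Mrp genes. Their transcripts are shorter still, with a median of 775 bases.

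**Figure D5:**
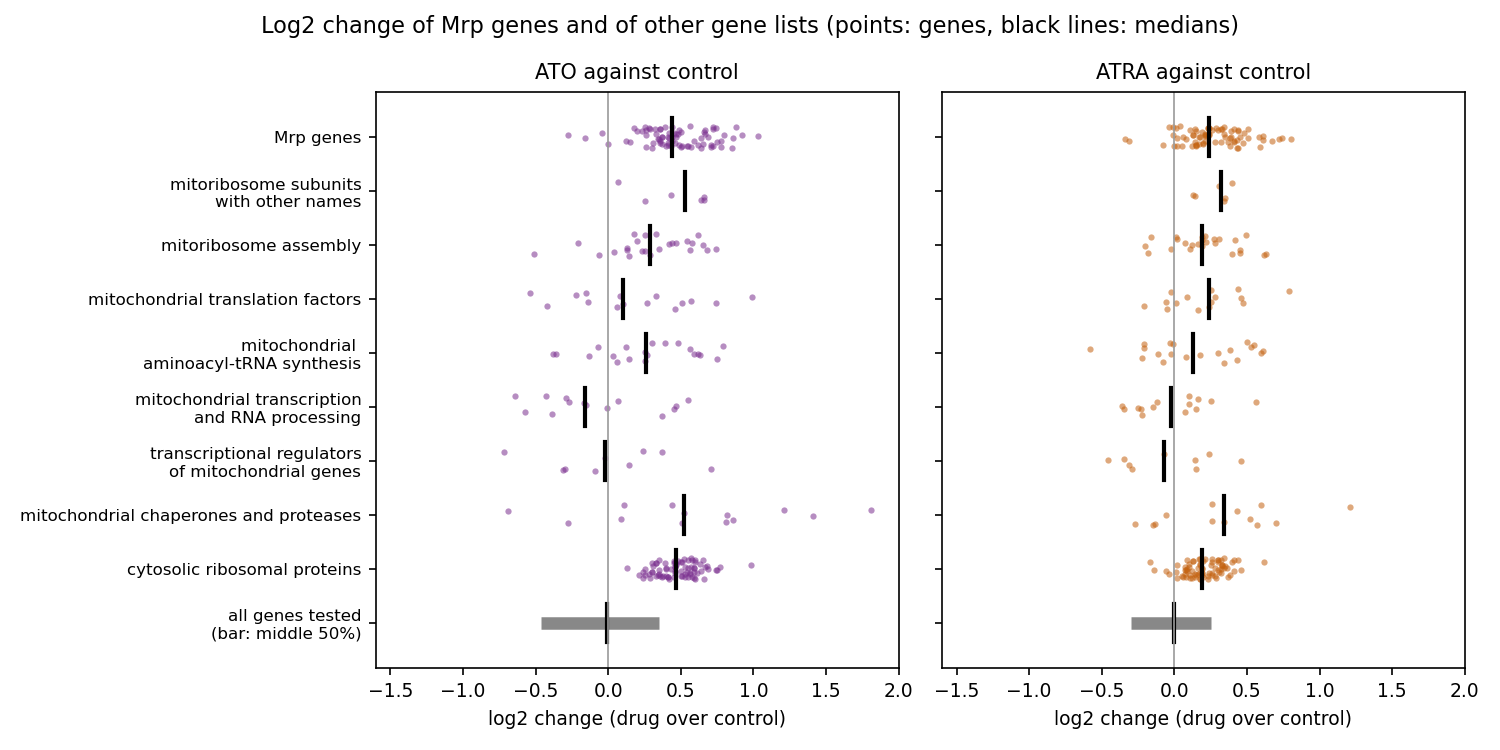
Log2 change over control of each gene (points) of the Mrp genes and 8 other lists with ATO (left) and ATRA (right), with list medians as black lines and the middle 50% of all genes tested as a grey bar. With ATO the medians run from -0.16 (mitochondrial transcription and RNA processing) to 0.53 (subunits with other names), with 0.44 for the Mrp genes and -0.006 for all genes tested, and with length and GC trends removed these lists had 0.06, 0.34 and 0.23.

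Markers of other cells also differed between groups. The summed level of 10 macrophage markers was 7029 to 11470 scaled reads with ATO, 5404 to 8219 with ATRA and 12720 to 33790 in controls, with 8 markers lower and 1 higher with ATO and 7 lower with ATRA, and none at 0 in any group. Stroma markers summed to 372 to 404 scaled reads with ATO, 351 to 455 with ATRA and 1088 to 1291 in controls (6 of 8 lower with each drug). Sums of 7 eosinophil, basophil and mast cell markers were 516 to 638 with ATO, 365 to 506 with ATRA and 1632 to 3329 in controls (5 lower with each drug). Megakaryocyte markers summed to 153 to 338 with ATO, 133 to 188 with ATRA and 428 to 659 in controls (3 of 6 lower with ATO and 2 with ATRA). Sums of 10 T and NK cell markers ran the other way, with 2055 to 2680 with ATO, 2449 to 2559 with ATRA and 1334 to 2050 in controls, while 5 of these markers were lower and 1 higher with each drug, and Cd8a and Ncr1 were at 0 with ATO. Sums of 7 B lineage markers were 79.1 to 85.3 with ATO, 88.0 to 125 with ATRA and 88.0 to 122 in controls, none was called, and Ms4a1, Pax5 and Ebf1 were at 0 with both drugs. Sums of 9 erythroid markers were 36.1 to 56.2 with ATO, 22.7 to 50.2 with ATRA and 78.2 to 96.1 in controls, and none was called. Among these markers the globin genes Hba-a1, Hbb-b1 and Hbb-bt were at 0 in every group. Sums of 8 markers of cycling cells were 28700 to 29720 with ATO, 25400 to 28990 with ATRA and 23270 to 30950 in controls, and these ranges overlapped, with 2 of the 8 lower with ATO. In bulk libraries fewer cells of a type and less RNA per cell cannot be told apart, and the part of these cells in the Mrp changes was not tested.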

How the data were processed

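Sorted GFP+ APL cells were profiled by polyA RNA sequencing in 3 ATO, 3 ATRA and 3 control libraries, grouped by their labels. According to the methods text, the authors trimmed reads with cutadapt after FastQC, aligned them to mm9 with STAR, kept unique reads and counted them per gene with HTSeq-count. Group comparisons of theirs used DESeq2. No source used here gives versions, annotation or counting strand. Besides mm9, hg19 is named in the submitters' processing notes.

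The signal values deposited are read counts that the authors had divided by a size factor, in 2 tables sharing their controls. The deposited log2 fold changes and p-values of the authors were not used. Division by each column's smallest step gave whole reads for 100% of values above 0 (within 0.001 read), identical between tables for controls. Entries with symbols turned into dates (27, at most 0.173% of reads) were left out. Reads were rescaled jointly by median-of-ratios size factors (0.609 in ATO 3 to 1.378 in ATO 2).

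The normalized unit called for a test on log2 values. Log2(scaled reads + 0.5) was fitted with limma 3.58.1 (R 4.3.3, intensity trend, all 9 libraries in a single model of 3 groups) for the 12101 genes with at least 10 in at least 3 libraries, and p-values were adjusted by Benjamini-Hochberg over all of them. The 0.5 added pulls fold changes of low genes toward 0. The median SE of a log2 change was 0.23, which sets the precision. The fit was tested on simulated data for ATO against control. It recovered 64% of 100 genes changed 2-fold and 96% of 100 changed 3-fold, with 13 false calls among 11933 genes. The simulated counts varied independently between genes, without the length trends of the real libraries. These figures therefore do not carry over to the calls in these data. Alternatives were edgeR 4.0.16 and DESeq2 1.42.0 on the recovered reads, other scalings, filters, pseudocounts and thresholds, a replicate block, removal of length and GC trends by splines, and leaving out libraries.

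The members, the other gene lists and the naming rule were chosen with earlier results of these data known. The rule named called members (up to 12 by adjusted p), the 3 largest changes each way, the most and least abundant members per kilobase, subunits with a set place, and up to 3 called genes of each other list (or the most abundant). Of the 15 in the transcription list, Mrpp3 was not matched, and Ppargc1a did not pass the filter. Positions and lengths are from GENCODE vM1 (mm9, the lowest-numbered coding transcript) and promoters from RefSeq (GRCm38.p6). Python 3.11.15 was used.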

Additional observations from a re-analysis of the deposited data

How the results depend on the processing

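Across the settings tried, the median log2 change of the 77 Mrp genes stayed above 0 in all 3 comparisons, while the number of calls varied. With ATO the count of 15 genes (6.13% of all genes higher) became 7 with length and GC trends removed (3.79%) and 7 with only the 2 groups compared (3.01%). It was 24 at an unadjusted p under 0.05 with the fold still over 1.5 (9.63%), and 1 at a fold change over 2. Without control 2 and ATRA 3 together it was 8 (5.73%). It was 0 (3.05%) without control 2 and ATO 3 together, a setting added after the data had been seen, with a median of 0.199. Leaving out single libraries gave 0 to 28 calls with ATO (0.735% to 12.7% of all genes higher) and 0 to 3 with ATRA (0.186% to 2.48%). With ATRA the count of 0 (1.34% of all genes higher) became 1 with TMM scaling (1.63%) and 1 with no filter (1.04%), Mrpl24 both times. It became 3 with DESeq2 (2.18%) and 7 at an unadjusted p under 0.05 with the same fold limit (4.56%). Each of the 15 genes was called in 13 to 20 of 24 settings, with adjusted p-values up to 0.206. The difference of the subunit medians with ATO (large minus small) became 0.00664 with the trends removed, with or without a replicate block. The cause of these shifts was not tested. The main fit did not pair libraries by number. Same-numbered libraries did not all deviate together, with r from -0.381 for ATO 1 with control 1 to 0.331 for ATO 3 with ATRA 3. For ATRA with ATO r was 0.119 at number 1 and 0.162 at number 2. Such correlations cannot show whether the numbers mark pairs. A replicate block gave 16 calls with ATO (15 of them shared, 6.13% of all genes higher), 0 with ATRA (1.4%) and 0 for ATO against ATRA (0%). With the trends removed as well it gave 8 with ATO (3.96%). With 3 libraries a group the median SE of a log2 change was 0.23, which limits what could be called.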
